A study of Homo sapiens with 6 samples.

Results

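The regions described here are the GSX2 peaks that lie nearest to ZNF608 or ZNF609, a pair of related zinc finger genes, in 3 peak lists from chromatin immunoprecipitation and sequencing. A peak was taken when the protein-coding gene nearest to its strongest summit was one of the pair, and peaks of different replicates that overlapped by at least 1 bp were merged into a region. This gave 44 of 15750 regions, 37 at ZNF608 and 7 at ZNF609. The peaks came from H9, a widely used line of human embryonic stem cells, differentiated toward progenitors like those of the lateral ganglionic eminence, the embryonic origin of striatal neurons. The cells carried TRE3G 2xFLAGGSX2 WT, a doxycycline-driven transgene for wild-type GSX2 with a FLAG tag, and all 3 replicates received 100 ng/mL doxycycline for 12 hours from day 10 and were taken at day 10.5. Every culture, input included, was differentiated with LDN193189 and SB431542, first together with XAV939, and then with IWP2 and Activin A, which inhibit or supply BMP, TGF-beta and Wnt family signals. The M2 antibody against FLAG was used, so the peaks report the induced transgene product and not the cells' own GSX2. The 3 input samples have no values here, no precipitation without the transgene was analysed, and there is 1 group, so no region was compared between conditions and no test was made.

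GSX2 is a homeodomain transcription factor of ventral forebrain progenitors, and homeodomains of its kind bind short DNA words around TAAT. ZNF608 and ZNF609 encode large nuclear proteins with a zinc finger, relatives of the fly protein Scribbler, also called Brakeless, which acts as a transcriptional corepressor. ZNF609 is known in neural progenitors as a partner of the Integrator complex and of NIPBL, the loader of cohesin on chromatin, and its transcripts also give rise to a circular RNA. A transcription factor may bind far from the gene it controls, and the gene nearest to a peak need not be the one it acts on.

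The promoters of both genes are shown because peaks of replicates 1 and 2 cover the ZNF609 promoter and none covers that of ZNF608. Each line holds the 250 bases before the start site in the RefSeq promoter table (GRCh38.p14), read toward the gene, with TAAT on either strand in capitals. The ZNF609 stretch is chr15:64460328-64460577 on the plus strand, and the ZNF608 stretch is chr5:124748825-124749074 on the minus strand. The ZNF609 start site of that table, chr15:64460578, lies inside the gene span used here, which begins at chr15:64459578. The ZNF609 stretch is thus within the span and not upstream of it.
ZNF609: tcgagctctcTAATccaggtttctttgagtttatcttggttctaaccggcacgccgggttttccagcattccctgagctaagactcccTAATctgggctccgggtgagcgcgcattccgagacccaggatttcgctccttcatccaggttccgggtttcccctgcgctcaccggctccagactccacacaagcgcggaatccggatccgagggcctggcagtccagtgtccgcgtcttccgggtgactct
ZNF608: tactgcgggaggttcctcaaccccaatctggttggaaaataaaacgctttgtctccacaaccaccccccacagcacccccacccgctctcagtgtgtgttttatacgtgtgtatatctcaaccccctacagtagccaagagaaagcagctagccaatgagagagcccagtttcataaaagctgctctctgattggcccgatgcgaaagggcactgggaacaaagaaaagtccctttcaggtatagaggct
The ZNF609 stretch holds 2 TAAT words, which begin 240 and 162 bases before the start site, and the ZNF608 stretch holds 0. Among 15811 protein-coding promoters in the table, 39.6% of these 250-base stretches hold TAAT on either strand. Neither stretch holds TAATTA (in 3.15% of promoters) or CAATTA (in 5.41%), both longer words of which TAATTA contains TAAT and CAATTA contains its reverse complement ATTA. The bases were 58.8% G or C at ZNF609 and 50.4% at ZNF608, with a median of 62.4% over all of these promoters. The sequences under the other regions were not used here.

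On the autosomes and X, replicates 1, 2 and 3 had 9859, 7471 and 9122 peaks. The lists give no read counts, so the sequencing depth is unknown and a missing peak cannot be told apart from one lost to depth. Values are the authors' fold enrichment of each peak, the linear ratio of its signal to the background that the peak caller estimated, and n is 3 where a peak stood in every replicate. The labels do not say whether the replicates were separate cultures, so the SD may be partly technical.

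Under this assignment ZNF608 was nearest to more reproducible regions than any other protein-coding gene. It lies on the minus strand at chr5:124636915-124748824, and 14 of its 37 regions had a peak in all 3 replicates (37.8%, against 22.4% of all 15750 regions). A further 13 had a peak in 2 replicates, which made 27 of 37 with at least 2, against 45.1% of all regions, and 10 had a peak in 1. At least 1 region of all 3 replicates was nearest to 12.3% of the 19970 protein-coding genes, and 0.00501% of them, ZNF608 alone, had 14 or more. GLI3, the Hedgehog pathway transcription factor gene, followed with 11, and CADPS2, DACH1 and TLE4 had 9 each; these 4 genes were named after their values were seen. Both genes were chosen by their peaks in these lists, that is by peak positions and fold enrichment, so the counts and values are a description.

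Much of that count rests on how regions were assigned to genes. The stretch over which ZNF608 is the nearest protein-coding gene spans 1427 kb, against a median of 54.7 kb over all genes, because 1020 kb and 1611 kb separate it from its neighbours CSNK1G3, a casein kinase gene, and GRAMD2B, which encodes a GRAM domain protein. Among the 223 genes with a stretch at least that long, the next highest number was 9, the median was 1 and 79 genes had none. Per megabase ZNF608 had 9.81 such regions, against 1.17 over all genes together, and by that measure it ranked 643rd. GLI3, with a stretch of 754 kb, had 14.6 per megabase, and CADPS2, with 623 kb, had 14.4. When genes of every type were allowed as the nearest, 4 of the 14 remained with ZNF608. The same 4, all inside its span, were the only ones within 100 kb of it. A stricter minimum −log10 q of 10 left 8, against 9 for GLI3.

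**Figure D1:**
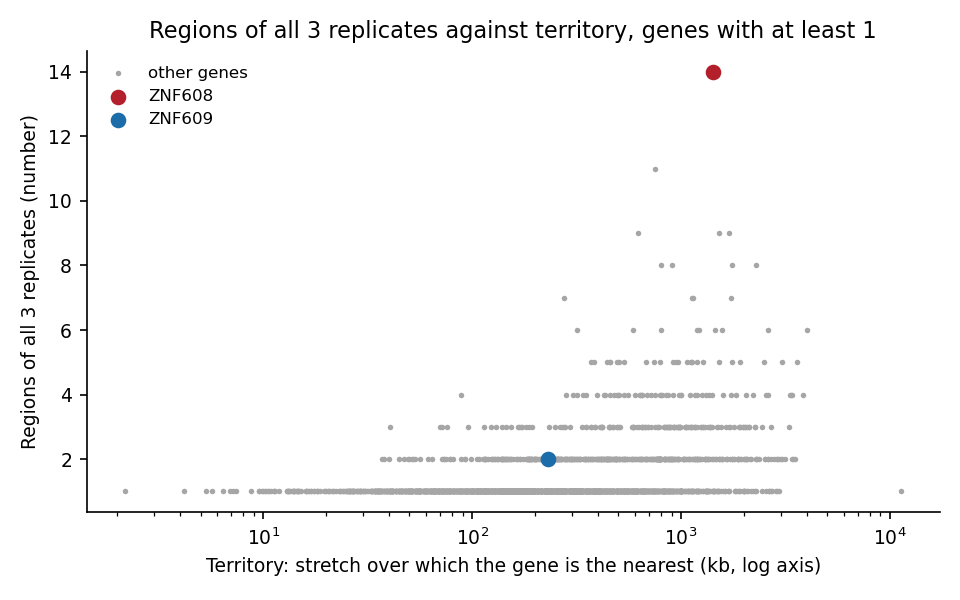
Number of regions with a peak in all 3 replicates (vertical axis) against the length of sequence for which a gene is the nearest (kb, log axis), 1 point for each of the 2449 protein-coding genes with at least 1 such region. ZNF608 stands at 14 regions and 1427 kb, and ZNF609 at 2 regions and 229 kb.

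The regions of ZNF608 lay on both sides of the gene and inside it. Upstream were 14 regions, 7 of them with a peak in all 3 replicates, from 25.7 to 751.3 kb away. Inside the span were 10 regions, 4 of all 3 replicates, and downstream were 13, 3 of all 3 replicates, from 4.49 to 402.6 kb away. Per megabase that was 8.69 reproducible regions over 806 kb upstream, 35.7 over the 112 kb of the gene and 5.88 over 510 kb downstream. Of the 14 reproducible regions, 10 lay over 100 kb from the gene, against 20.6% of such regions across the genome, and 4 lay inside a protein-coding span, against 51.3%. The first and the last were 1236 kb apart, with gaps of 1.16 to 367.9 kb between neighbours and a median gap of 87.4 kb.

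**Figure D2:**
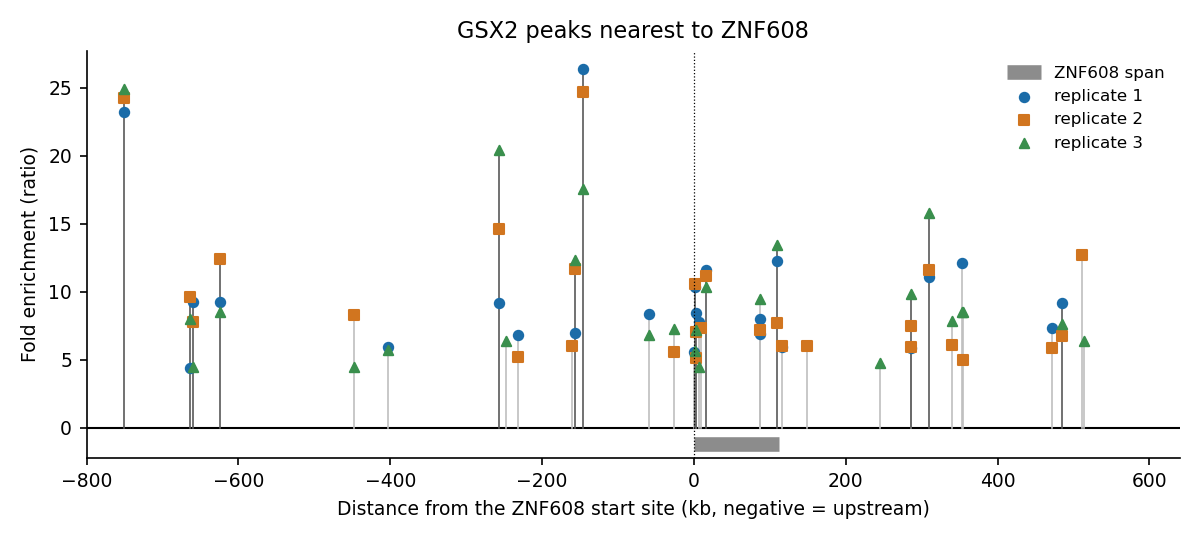
Fold enrichment (ratio, vertical axis) of every GSX2 peak nearest to ZNF608 against its distance from the ZNF608 start site (kb, negative values upstream). Points are replicates 1, 2 and 3, dark stems mark regions with a peak in all 3, and the grey bar is the gene span; the tallest stems stand 751.3 and 146.5 kb upstream.

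The strongest region was also the farthest from the gene. It lay 751.3 kb upstream at chr5:125499798-125500458, inside the long noncoding RNA gene LINC02240, with fold enrichment of 23.2, 24.2 and 24.9 in replicates 1, 2 and 3. The replicates were close together, with a mean of 24.1 ± 0.8 (SD, n = 3), and it ranked 75th of 3534 regions found in all 3 replicates. Its summits fell within 21 bp of each other. The midpoint between ZNF608 and GRAMD2B lies 54.3 kb beyond it, and no protein-coding gene lies between the region and ZNF608.

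A region 146.5 kb upstream, at chr5:124895115-124895490, was of similar strength. Its fold enrichment was 26.3, 24.7 and 17.6 across replicates 1, 2 and 3, averaging 22.9 ± 4.7 (SD, n = 3), rank 92 of 3534. Replicate 3 was the lowest here, and the range spans that of the strongest region, so their order is not resolved. The summits lay within 16 bp.

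The third by mean, 256.7 kb upstream at chr5:125005232-125005666, varied most between replicates. Fold enrichment was 9.15, 14.6 and 20.4, a mean of 14.7 ± 5.6 (SD, n = 3), with replicate 1 low and replicate 3 high, yet the summits fell within 5 bp. Of the 12 reproducible regions after the first 2, it alone reached the 17.6-fold that was the lowest value of the strongest pair in any replicate. The means of these 12 ran from 7.17 to 14.7-fold.

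The other 4 reproducible upstream regions were weaker and fell into a near and a far group. The near one, 156.9 kb upstream at chr5:124905345-124906069, stood 10.4 kb from the 146.5 kb region. It had 7.0, 11.6 and 12.3-fold enrichment, lowest in replicate 1 (10.3 ± 2.9, SD, n = 3). The far group held 3 regions between 624.5 and 663.9 kb upstream. At 624.5 kb (chr5:125372898-125373639) the values were 9.27, 12.4 and 8.55-fold, highest in replicate 2 (10.1 ± 2.1, SD, n = 3). The strongest summits there spread over 440 bp, with that of replicate 3 apart from the others. At its summit near those of replicates 1 and 2, replicate 3 had 7.48-fold. At 660.1 kb (chr5:125408710-125409049) they were 9.27, 7.79 and 4.45-fold, and at 663.9 kb (chr5:125412380-125412978) they were 4.38, 9.62 and 7.99-fold. These last regions, 3.84 kb apart, had nearly the same mean, 7.17 ± 2.47 and 7.33 ± 2.69 (SD, n = 3), but replicate 1 was the highest in one and the lowest in the other. At 663.9 kb the strongest summits of the replicates spread over 285 bp, so the mean joins different summits. Replicate 3 had 4.42-fold at its summit near those of replicates 1 and 2.

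Inside ZNF608 the regions gathered at the first part of the gene. Within 20 kb after the start site there were 7 regions, 3 of them in all 3 replicates. The reproducible one nearest to the start, 1.47 kb after it at chr5:124747080-124747741, had 10.3, 10.6 and 5.62-fold enrichment, lowest in replicate 3 (8.85 ± 2.81, SD, n = 3). Another stood 2.63 kb after the start, 1.16 kb from the former (chr5:124745995-124746465), with 8.46, 7.03 and 7.19-fold (7.56 ± 0.78, SD, n = 3). Its strongest summits spread over 169 bp. The region 15.2 kb after the start (chr5:124733159-124733862) was even across replicates, at 11.6, 11.2 and 10.3-fold (11.0 ± 0.7, SD, n = 3). The fourth lay near the far end of the gene, 109.6 kb after the start (chr5:124638969-124639568), with 12.3, 7.67 and 13.4-fold, lowest in replicate 2 (11.1 ± 3.1, SD, n = 3). Exons and introns were not separated, because only the ends of each gene were annotated.

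No peak covered the ZNF608 promoter window, the 300 bases from 250 before to 50 after the start site. The closest was a peak of replicate 1 alone, 5.55-fold, whose summit lay 285 bases after the start site and whose edge came within 11 bases of the window. A peak of at least 1 replicate covered this window in 4.81% of 15811 protein-coding genes.

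Downstream of ZNF608 the reproducible regions were all beyond 100 kb. The strongest, 197.8 kb past the end of the gene at chr5:124438935-124439262, had 11.1, 11.6 and 15.8-fold enrichment, highest in replicate 3 (12.8 ± 2.6, SD, n = 3). It lay 0.581 kb outside LINC01170, a long noncoding RNA gene. Closer to the gene, the one 174.7 kb away (chr5:124462046-124462585), had 5.89, 7.51 and 9.80-fold (7.73 ± 1.97, SD, n = 3). Its summits spread over 105 bp. The most distant, 373.0 kb away inside LINC01170 (chr5:124263753-124264561), had 9.17, 6.78 and 7.61-fold (7.85 ± 1.21, SD, n = 3). Its strongest summits spread over 306 bp, with that of replicate 1 apart from the others. Each region was also credited to a single gene of any type, the shortest where genes overlap. Across the locus 10 of the 37 regions were credited to long noncoding RNA genes that they lay inside. Of these 10, 6 were credited to LINC01170, and 2 were found in all 3 replicates. The region credited to LOC105379155, at chr5:124409178-124409549, also lay within LINC01170. The share of all regions inside such genes is not given here, so these counts are a description without a comparison.

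**Figure D3:**
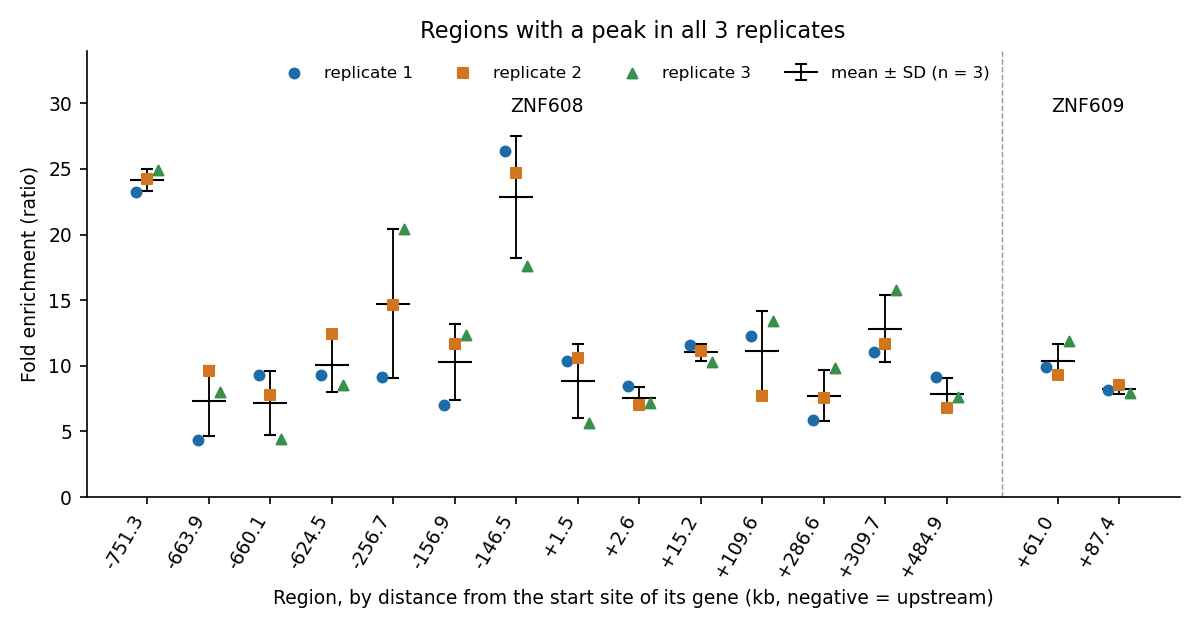
Fold enrichment (ratio, vertical axis) in replicates 1, 2 and 3 of the 14 ZNF608 and 2 ZNF609 regions found in all 3, with the mean and SD (n = 3), ordered by distance from the start site of the gene (kb, negative values upstream). The regions 751.3 and 146.5 kb upstream of ZNF608 stand highest, at means of 24.1 and 22.9, and the 2 ZNF609 regions lie at 10.4 and 8.21.

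No replicate was highest throughout. Replicate 1 gave the highest value in 5 of the 14 ZNF608 regions, replicate 2 in 3 and replicate 3 in 6. Over all regions found in 3 replicates the shares were 35.3, 30.0 and 34.7%. In some of the 14 regions the values compared came from different summits. The SD was 3.48 to 38.3% of the mean, with a median of 22.9%, against 19.5% over all regions found in 3 replicates. Ordered by mean, all 13 neighbouring pairs among the 14 had overlapping ranges, so no step between neighbours is resolved. The median of the 14 means was 10.2-fold, against 9.49-fold for all such regions.

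Several ZNF608 regions were compound. Of the 14, 5 had more than 1 summit in at least 1 replicate, against 11.7% of all regions found in 3 replicates, and 2 had more than 1 summit in every replicate, against 1.19%. The 14 were also wider, with a median of 599.5 bp against 391.5 bp, and a link of width to the number of summits was not tested. In the region 373.0 kb downstream the summits were 314, 458 and 347 bp apart in replicates 1, 2 and 3, and the first summits of the 3 replicates fell within 29 bp. In the region 156.9 kb upstream the first pair of summits was 257, 277 and 234 bp apart. The later summit of that pair was the stronger in every replicate, while in the downstream region it was the stronger in replicate 1 only.

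The ZNF608 regions of 2 replicates or 1 were weaker. The 13 of 2 replicates had means of 5.84 to 10.3-fold, with a median of 6.59, against 7.18 for all regions of 2 replicates. The strongest, at chr5:124395315-124395669 inside LINC01170, had 12.1-fold enrichment in replicate 1 and 8.50 in replicate 3. The 10 regions of 1 replicate had a median of 6.03-fold, against 6.21 for all such regions, and 6 of them were in replicate 2. One of these stood apart, a replicate 2 peak of 12.7-fold at chr5:124237021-124237240, above the mean of 10 of the 14 reproducible regions and without a peak in the other replicates.

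ZNF609 had far fewer regions, all within its own span. It lies on the plus strand at chr15:64459578-64686068, and 2 of its 7 regions had a peak in all 3 replicates (28.6%, against 22.4% of all regions). At least 2 such regions were found at 3.25% of protein-coding genes, and 233 genes had more. Its neighbours are close, TRIP4, a transcriptional coactivator gene, at 4.27 kb and OAZ2, an ornithine decarboxylase antizyme gene, at 1.51 kb, so the stretch over which it is the nearest is 229 kb. Per megabase that was 8.72 reproducible regions, on 2 regions, against 9.81 at ZNF608. The 2 stretches are unlike, since that of ZNF609 is almost all gene (226 kb). Inside the ZNF608 gene alone the value was 35.7, on 4 regions.

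The stronger ZNF609 region lay 61.0 kb after the start site at chr15:64521390-64521764. Fold enrichment was 9.93, 9.28 and 11.9 in replicates 1, 2 and 3 (10.4 ± 1.3, SD, n = 3), which ranked 1413th of 3534. The other, 87.4 kb after the start site and 26.4 kb from the former (chr15:64547826-64548114), had 8.18, 8.55 and 7.90-fold (8.21 ± 0.33, SD, n = 3) and ranked 2417th. The latter also lay inside LOC101930091, a long noncoding RNA gene. The ranges of these regions did not overlap, since the lowest value of the former, 9.28, was above the highest of the latter, 8.55. Summits agreed within 22 and 15 bp. Against ZNF608, both means were below those of its 2 strongest regions and within the range of its other 12.

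The ZNF609 promoter shown above was covered by peaks of replicates 1 and 2 and not of replicate 3. Both were weak, at 5.68 and 5.40-fold, and their summits lay 125 and 69 bases before the start site. They were still inside the ZNF609 span, which begins farther upstream than that start site. The TAAT word 162 bases before the start site lay under both peaks, and the one at 240 bases lay outside them. The peaks overlapped the 300-base window by 203 and 245 bases. Peaks of at least 2 replicates covered this window in 1.70% of genes and peaks of all 3 in 0.727%. The region also overlaps the promoter window of LOC105370861, a long noncoding RNA gene on the opposite strand, so a peak at one start site and a peak at the other cannot be told apart. The remaining 4 regions had a peak in 1 replicate each, at 4.28 to 6.94-fold, 5.89 to 175.2 kb after the start site.

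**Figure D4:**
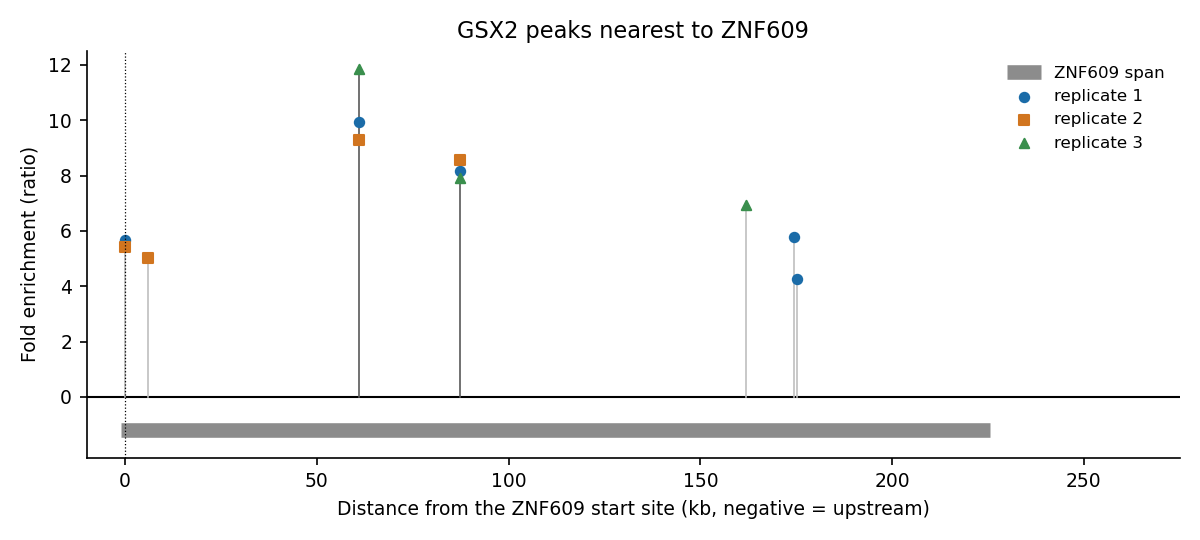
Fold enrichment (ratio, vertical axis) of every GSX2 peak nearest to ZNF609 against its distance from the ZNF609 start site (kb, negative values upstream). Points are replicates 1, 2 and 3, dark stems mark the regions of all 3 at 61.0 and 87.4 kb, and the grey bar is the gene span.

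Regions also stood just outside the assignment limits. On the upstream side of ZNF608 a region at chr5:125555573-125555814 lay only 1.23 kb past the midpoint and went to GRAMD2B, with 6.18, 5.81 and 5.39-fold enrichment (5.80 ± 0.39, SD, n = 3). On the other side the first region beyond the limit had a peak in replicate 3 only, 5.26-fold. GRAMD2B had 5 regions of all 3 replicates among 14, and CSNK1G3 had 0 among 6. Next to ZNF609, a region inside TRIP4 at chr15:64454208-64454658 lay 5.17 kb from the ZNF609 span with 7.66, 6.87 and 8.40-fold (7.64 ± 0.76, SD, n = 3), and OAZ2 had no region. Both means were below the 9.49-fold median of all regions found in 3 replicates.

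Genes for known partners of this family were also looked up. Of 14 Integrator subunit genes, 1 had a region of all 3 replicates. This was INTS10, with 2 such regions, the stronger 16.8 kb away (12.6 ± 2.8-fold, SD, n = 3). Of 10 genes for cohesin and its loader 2 had one, the cohesin subunit gene STAG1 (16.8 ± 2.1-fold, SD, n = 3) and the cohesin regulator gene PDS5B (12.3 ± 3.0-fold, SD, n = 3), both inside the gene, while NIPBL had none. Of 5 genes tied to the fly relative or to work on this family in thymocytes, the atrophin-type corepressor gene RERE had 3 regions of all 3 replicates, the strongest at 8.78 ± 2.96-fold (SD, n = 3) inside the gene. The shares were 7.14%, 20% and 20%, beside 12.3% of all protein-coding genes, on 1 or 2 genes each. A region of any replicate was nearest to 6 of 14, 5 of 10 and 4 of 5 genes of these lists, beside 32.6% of all genes. The median number of regions of all 3 replicates was 0 in each list and over all genes.

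No other gene had a number of reproducible regions within 1 of that of ZNF608. For ZNF609, 2349 genes did, and those closest in the length of the stretch included RNF217, a ring finger gene, and MOBP, a myelin protein gene. Both had 1 region of all 3 replicates, at 8.87 ± 0.95 and 10.4 ± 1.9-fold (SD, n = 3), near the 10.4 and 8.21 of ZNF609.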

How the data were processed

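The submitters' processing notes list Trim Galore, Bowtie2, SAMtools, MACS3, deepTools and build hg38, with no roles, versions or settings. Each replicate has its own narrow-peak list, in which the authors give every summit a fold enrichment (a linear ratio), −log10 p and −log10 q. A deposited score repeats the −log10 q and played no part. No listed −log10 q was below 3.0.

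An interval with several summits was represented by that of highest fold enrichment, on chromosomes 1 to 22 and X. Each peak was given to the nearest protein-coding span of the RefSeq table (GRCh38.p14, 19970 genes; ties went to the shorter span), then merged over replicates by 1 bp overlap. The promoter table gave strand and start site. Word counts under peaks were planned and not run, because only promoter sequences were used here. The members and lists were chosen with earlier results of these data known. Named genes were the members, their neighbours, the 3 genes most like each in number of shared regions (within 1) and length of the stretch, and up to 2 genes per partner list. Not every gene that this rule names is reported here. Merging and assignment were tested on simulated data. Alternatives left out each replicate or changed the threshold, overlap, assignment, distance or averaging. Python 3.11.15 and pandas 2.3.3 were used.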

Additional observations from a re-analysis of the deposited data

How the results depend on the processing

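With each replicate left out in turn and a region then required in both others, ZNF608 had 31 to 36 regions, 18 to 19 of them reproducible, and ZNF609 had 5 to 6 and 2 to 3. The share of protein-coding genes with at least 1 reproducible region was 14.4 to 16.4%, and the strongest regions had means of 24.1 to 25.5-fold at ZNF608 and 9.61 to 10.9-fold at ZNF609. Without replicate 3 the region 146.5 kb upstream became the strongest at ZNF608. No gene had more reproducible regions than ZNF608 in any of these 3 settings. With a minimum −log10 q of 10, ZNF608 kept 22 regions, 8 of them reproducible, ZNF609 kept 2 and 1, and the share of genes was 7.74%. With genes of any type as the nearest, ZNF608 had 12 and 4, ZNF609 had 4 and 1, and 16 protein-coding genes had more reproducible regions than ZNF608. Within 100 kb of the span, an alternative added after seeing the data, ZNF608 had 14 and the same 4, and 26 genes had more. Counting regions of at least 2 replicates, also added later, gave 27 at ZNF608. An overlap of 50% of the shorter peak, and assignment after merging, left the counts at both genes as they were. No paired analysis was possible because there is 1 ChIP group and the input samples that share its replicate numbers have no values here. The depth of the lists is unknown, so it limits the regions of 1 or 2 replicates to an unknown extent.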
